A study of Saccharomyces cerevisiae with 46 samples.

Results

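The modHTH and modNNN terminators of an mCherry reporter were compared in budding yeast, in 14 of the 34 libraries that have count columns (6 modHTH, 8 modNNN), chosen by the terminator named in the plasmid label. The series lists 46 samples, and those without a count column were not analysed here. Every library came from Saccharomyces cerevisiae BY4741, a haploid MATa laboratory strain, carrying a low-copy plasmid with mCherry and the selection marker URA3. Cultures grew in liquid SC-Ura, synthetic complete medium lacking uracil, for 4 h at 30 °C and 200 rpm, to an OD600 of 0.7. Total RNA was read by QuantSeq REV, a 3′-end method in which a read starts at the poly(A) junction of a transcript, so it gives both a transcript's abundance and where it ends.

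Short inserts (9 bp each) were placed at 3 sites of each terminator. The modNNN version received random sequence throughout, while modHTH has motif T in the middle and motif H on either side. The pair was built in 3 contexts, named by promoter and terminator. In pRPS3-tRPS3, both from the ribosomal protein gene RPS3, there were 4 modNNN and 2 modHTH libraries. In pPGK1-tRPS3, with the promoter of the glycolytic gene PGK1, and in pTSA1-tTSA1, from the peroxiredoxin gene TSA1, there were 2 of each. Both terminators of a pair therefore share promoter, reporter, marker and the length added, and differ in the sequence of the inserts. The labels do not say whether the numbered libraries of a group came from separate transformants or cultures, so the p-values below measure spread between libraries only. The edgeR tests took that spread from every library in a fit, also those of other plasmids, and partly shared it across genes or positions. The permutation tests used only the libraries compared.

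The 14 libraries held between 1013603 and 3551271 counts (median 1802381), of which 2664 to 22392 were mCherry. The strain markers matched a MATa haploid with the BY4741 deletions: MFA1, an a-factor gene, held 384 to 2372 counts, MF(ALPHA)1 held at most 3, LEU2 at most 2, and MET17 and the chromosomal URA3 row held 0. HIS3, of which the strain's allele lacks only a part, held 128 to 355.

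A yeast terminator directs cleavage of the nascent transcript and addition of the poly(A) tail, commonly at a cluster of neighbouring positions rather than at a single one. AT-rich efficiency and positioning elements upstream of the cleavage sites help to set where it occurs. The sequence left in the 3′ untranslated region can also be bound by proteins, such as the Puf family, whose sites begin with TGTA and which act on the stability and translation of the mRNA. The inserted motifs are shown because they are the whole designed difference between the terminators. In motif T the capitals mark the TGTA core of Puf-type sites, and motif H is given in capitals throughout.
motif T: TGTAcaata
motif H: TTTCATTTC

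The native cleavage regions of RPS3 and TSA1 are given for comparison. They are shown as 30 bases of the R64 genome of RefSeq on the coding strand, with capitals at each position that held at least 5% of the native gene's 3′ ends in the mean of the 14 libraries. Positions are counted from 1 at the first base after the stop codon. The RPS3 window is chrXIV:303451-303480 (+ strand), positions 49 to 78, in the 3′ untranslated region downstream of the RPS3 reading frame. The TSA1 window is chrXIII:220820-220849 (+ strand), positions 92 to 121, downstream of the TSA1 reading frame.
RPS3: TattCTagtGCactTaattgttgcggtttc
TSA1: atgctattCacTGaCaaaacgatacactac
Native RPS3 transcripts ended mainly at position 63 (20.3% of ends) and position 59 (18.3%), with 12.9% at position 49. Native TSA1 transcripts ended mainly at position 106 (39.0%) and position 100 (17.9%). Neither motif occurs on either gene's coding strand within 200 bases of its stop codon.

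With modHTH, reporter mRNA relative to the plasmid marker stood at 0.354 of the modNNN level in pRPS3-tRPS3 and at 0.291 in pTSA1-tTSA1, but it was not lower behind the PGK1 promoter. The ratio of mCherry to URA3 counts relates the reporter to a gene on the same plasmid. In pRPS3-tRPS3 this ratio was 0.850, 0.900, 0.950 and 1.03 in the modNNN libraries and 0.331 and 0.327 in the modHTH libraries. In pTSA1-tTSA1 it was 2.63 and 2.34 with modNNN and 0.774 and 0.674 with modHTH. In pPGK1-tRPS3, which has the same terminators as pRPS3-tRPS3, it was 1.40 and 1.39 with modNNN and 1.47 and 1.67 with modHTH. The groups did not overlap in any context, with modHTH above modNNN in pPGK1-tRPS3. Such separation is common with so few libraries. Of host genes, 16.6% were separated upward and 16.7% downward in pPGK1-tRPS3, 16.8% and 14% in pTSA1-tTSA1, and 11.5% and 12.2% in pRPS3-tRPS3.

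On the log2 scale the ratio changed by -1.496 (SE 0.092) in pRPS3-tRPS3, by -1.78 (SE 0.11) in pTSA1-tTSA1 and by 0.17 (SE 0.11) in pPGK1-tRPS3, with standard errors from an SD pooled over the groups. The mean over the 3 contexts was -1.04 (2-sided exact permutation test within contexts, p = 0.0111, and 0.0222 adjusted over the 6 tests of a mean over more than 1 context). For both tRPS3 contexts together it was -0.66 (exact permutation p = 0.0667, adjusted 0.100). A single context cannot pass such a test, since its smallest possible p is 0.0667 with 4 against 2 libraries and 0.333 with 2 against 2. The change in pPGK1-tRPS3 stood 1.81 on the log2 scale above the mean of the other contexts, a description chosen after the values were seen. For mCherry itself, edgeR's test of the difference between contexts gave 1.61 for pPGK1-tRPS3 minus pRPS3-tRPS3 (SE 0.41, adjusted p = 0.110) and -1.86 for pTSA1-tTSA1 minus pPGK1-tRPS3 (SE 0.43, adjusted p = 0.133), neither of which passed.

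The same order held for mCherry scaled to host transcripts, though with weaker tests. Expression as CPM, the usual depth-scaled count (here on library sizes adjusted by TMM), was 3008, 4860, 2880 and 4415 with modNNN and 1545 and 1456 with modHTH in pRPS3-tRPS3. They were 3781 and 4073 against 1299 and 1325 in pTSA1-tTSA1, and 7868 and 5563 against 7645 and 8619 in pPGK1-tRPS3. In the last of these contexts the groups overlapped, and in the others every modHTH library was below every modNNN library. The latter also held for 12.2% of host genes in pRPS3-tRPS3 and 14% in pTSA1-tTSA1. By edgeR's quasi-likelihood test with Benjamini-Hochberg adjustment over 5138 features, mCherry fell by 1.34 on the log2 scale in pRPS3-tRPS3 (SE 0.28, adjusted p = 0.0112), where 2.72% of all features were called. Its change was 0.28 in pPGK1-tRPS3 (SE 0.30, adjusted p = 1.00; 0.448% of features called). In pTSA1-tTSA1 edgeR gave -1.58 (SE 0.31), which was not called after adjustment (adjusted p = 0.153) in a comparison where 0% of features were.

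Averaged over the 3 contexts mCherry fell to 0.543 of its modNNN level (log2 -0.88, SE 0.17, adjusted p = 0.0205; 0.331% of features called). That call is not stable: it was lost in 7 of the 14 fits that left out a single library, with adjusted p-values up to 0.103, although the value stayed between -0.95 and -0.80. The libraries whose removal lost it were both modHTH libraries of each context and replicate 2 of pTSA1-tTSA1 modNNN. The call in pRPS3-tRPS3 was lost without modHTH replicate 1 (adjusted p = 0.127) or replicate 2 (adjusted p = 0.170). The plasmid marker itself was not called in any context, with log2 changes of 0.10 to 0.20.

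**Figure D1:**
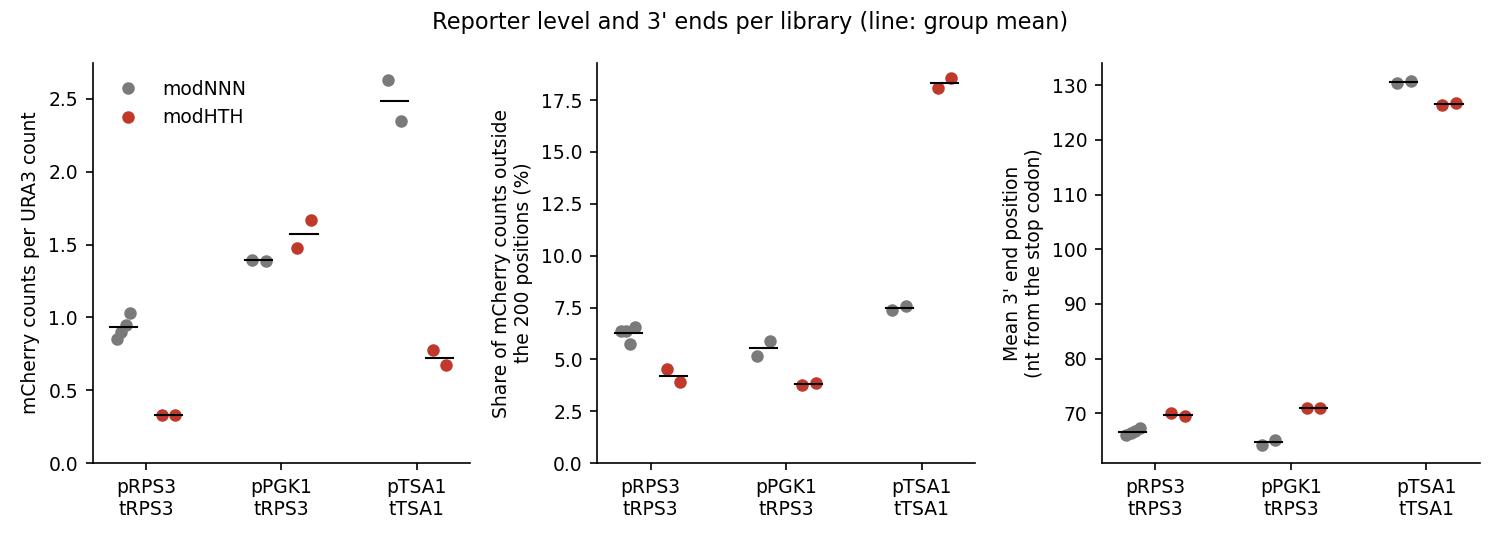
Reporter values per library (points) by context for modNNN and modHTH. The panels show the mCherry to URA3 count ratio, the percentage of mCherry counts outside the 200 nt after the stop codon and the mean position of the 3′ ends within them. The ratio is 0.331 and 0.327 with modHTH in pRPS3-tRPS3 and 1.47 and 1.67 in pPGK1-tRPS3, while the share outside 200 nt reaches 18.1% and 18.6% only in pTSA1-tTSA1 modHTH.

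Where the reporter mRNA ended also changed, and in tRPS3 the shares of ends changed alike behind both promoters. The share fell at an upstream cluster around position 57 and rose at the pair of positions 75 and 76. Relative to the marker, the pair changed differently behind each promoter, as given below. Of 49 positions with enough ends, 40 changed over both tRPS3 contexts (81.6% called; 11 higher, 22.4%, and 29 lower, 59.2%) in the edgeR test of ends per position. By context, 30 of 49 changed in pRPS3-tRPS3 (61.2%; 18.4% higher and 42.9% lower) and 39 of 49 in pPGK1-tRPS3 (79.6%; 22.4% higher and 57.1% lower). Positions of the same library share its ends, so a loss at a heavily used position raises the others. The positions are therefore not independent, and their very small p-values rest on a spread partly shared across them.

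Position 57 was the most used with modNNN. It held 34.1%, 33.6%, 30.7% and 29.5% of ends in the modNNN libraries of pRPS3-tRPS3, and 11.6% and 11.5% in the modHTH libraries. In pPGK1-tRPS3 it held 35.6% and 32.9% against 10.3% and 9.84%. All 4 modHTH libraries were thus below all 6 modNNN libraries, and the mean fell from 33.1% to 10.8% (log2 -1.62, SE 0.05, adjusted p = 8.13e-46). Position 45, a smaller upstream site, held 3.77%, 3.39%, 2.25% and 2.82% with modNNN and 0.383% and 0.117% with modHTH in pRPS3-tRPS3. In pPGK1-tRPS3 it held 5.81% and 4.93% against 0.125% and 0.123% (log2 -5.42, adjusted p = 1.06e-36), so it was all but lost. Position 56 fell with its neighbour, from 4.90% to 1.498% over both contexts (adjusted p = 3.73e-23).

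Positions 75 and 76 became the main ends with modHTH. Position 75 held 17.99%, 18.8%, 18.03% and 20.8% with modNNN and 27.5% and 28.1% with modHTH in pRPS3-tRPS3, and 16.6% and 16.5% against 30.6% and 32.8% in pPGK1-tRPS3. Position 76 held 14.7%, 15.1%, 14.6% and 15.4% against 34.5% and 31.0%, and 12.7% and 12.8% against 32.9% and 30.5%. At both, every modHTH library was above every modNNN library. The mean rose from 17.7% to 29.8% at position 75 (log2 0.74, adjusted p = 1.84e-28) and from 13.9% to 32.2% at position 76 (log2 1.22, adjusted p = 1.27e-41). Together, behind the RPS3 promoter, they rose as a share from 33.9% ± 1.68 (SD, n = 4 modNNN libraries) to 60.5% ± 2.08 (SD, n = 2 modHTH libraries). Behind the PGK1 promoter they took 29.4% ± 0.0186 and 63.4% ± 0.0629 (SD, n = 2 each).

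Minor ends appeared that modNNN hardly used. Position 52 held at most 0.152% in any of the modNNN libraries of these contexts, and 4.47% and 5.47% with modHTH in pRPS3-tRPS3 and 3.03% and 2.82% in pPGK1-tRPS3. Position 64 rose from 0.649% to 4.71% and position 72 from 0.839% to 4.83% in the mean of both contexts (adjusted p = 2.53e-30 and 4.71e-32). The 3 positions together held 1.40% ± 0.320 (SD, n = 4) with modNNN and 13.9% ± 0.942 (SD, n = 2) with modHTH in pRPS3-tRPS3. Ends far downstream became rarer: positions 77 to 200 held 9.91% against 4.31% in pRPS3-tRPS3 and 7.84% against 4.52% in pPGK1-tRPS3. As shares, positions 1 to 60 dropped from 46.6% ± 1.69 (SD, n = 4) to 23.1% ± 1.16 (SD, n = 2) in the first context and from 53.3% ± 1.25 to 17.9% ± 0.127 (SD, n = 2 each) in the other.

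Among ends within 200 nt, the shift in shares lengthened the mean 3′ untranslated region by a few bases. Counts outside that window, given below, are not in this mean. The mean end position was 66.6 with modNNN and 69.8 with modHTH in pRPS3-tRPS3, and 64.7 and 71.0 in pPGK1-tRPS3. The rise over both was 4.73 nt (2-sided exact permutation p = 0.0111, the smallest that 90 arrangements allow; adjusted 0.0222). Total variation distance, the percentage of ends that would have to move to turn a profile into another, put the change in scale. It averaged 42.7 between modHTH and modNNN libraries and 6.77 between libraries of the same group in pRPS3-tRPS3, and 48.9 and 4.38 in pPGK1-tRPS3.

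The profiles give shares only, so ends were also related to the marker, as ends per 100 URA3 counts. At position 57 these fell from 27.8 to 3.65 in pRPS3-tRPS3, a 7.61-fold decrease, and from 45.05 to 15.2 in pPGK1-tRPS3, a 2.97-fold decrease. At positions 75 and 76 together they went from 29.7 ± 3.70 (SD, n = 4) to 19.1 ± 0.734 (SD, n = 2) in pRPS3-tRPS3. In pPGK1-tRPS3 they went from 38.6 ± 0.377 to 95.7 ± 8.12 (SD, n = 2 each). So the upstream cluster lost transcripts behind both promoters, while the downstream pair was lower behind the RPS3 promoter and 2.48-fold higher behind the PGK1 promoter. These ratios are descriptions and were not tested.

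In tTSA1 the mean position of ends within 200 nt moved the other way, and the profile changed by less. Of 48 positions, 20 changed (41.7% called; 13 higher, 27.1%, and 7 lower, 14.6%), and without either modHTH replicate 1 or replicate 2 the count was 10. The most used position, 133, held 40.7% in each modNNN library and 32.04% and 31.6% in the modHTH libraries (log2 -0.35, adjusted p = 1.94e-05). Position 127 held 13.6% in each modNNN library and 16.1% and 15.9% with modHTH (log2 0.23, adjusted p = 0.00155). Positions 130 (6.04% and 7.12%) and 131 (8.04% and 8.70%) did not pass (adjusted p = 0.0524 and 0.277). The main cluster thus kept its order of use, with its top position lowered.

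Ends upstream of the main tTSA1 cluster took a larger share of fewer transcripts. Positions 1 to 121 held 5.51% of ends with modNNN and 13.8% with modHTH, but per 100 URA3 counts they went from 12.7 ± 2.16 to 8.19 ± 1.14 (SD, n = 2 each). In the group means, positions 86, 91, 92 and 96 held from 0% to 0.0136% with modNNN, and 0.798%, 0.696%, 0.491% and 0.247% with modHTH. Each passed the test. Positions 134 to 200 held 14.9% and 9.73%. The mean position of ends within 200 nt was 131 with modNNN and 127 with modHTH, a change of -4.05 nt. This stood -8.78 nt from the mean change of both tRPS3 contexts, a description chosen after the values were seen. Counts outside the 200 nt are not in these means. They made up 18.3% of mCherry counts with modHTH and 7.48% with modNNN in pTSA1-tTSA1, so the direction over all ends is not known. The distance between profiles was 15.6 between modHTH and modNNN libraries and 4.96 within groups.

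**Figure D2:**
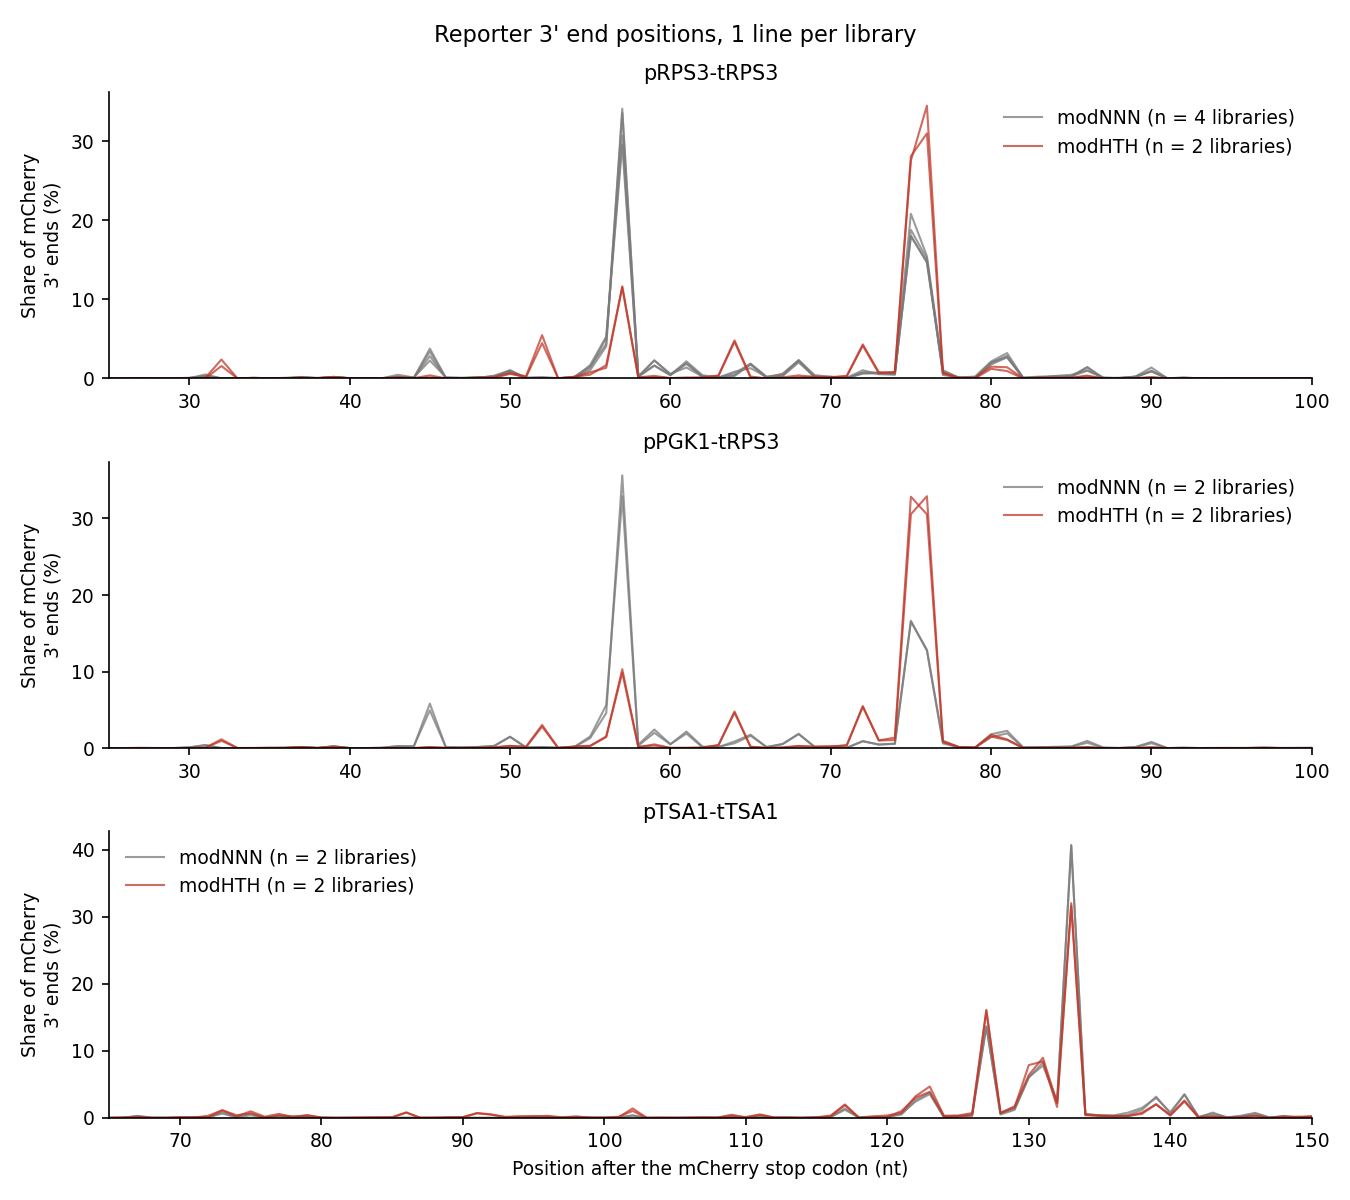
Share of reporter 3′ ends (percent of ends within 200 nt, y axis) by position after the stop codon (x axis, nt) in each context, with a line per library for modNNN and modHTH. In both tRPS3 panels the modHTH lines are low at position 57 and high at positions 75 and 76, and in the tTSA1 panel they are low at position 133, where they reach 32.04% and 31.6%.

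The 3 inserts add 27 bases, so a native cleavage site downstream of all 3 would lie at its position plus 27. Whether each site lies downstream of all inserts is not known, and the look-up assumes it. In tTSA1 the native sites at 100, 103, 104 and 106 reappeared at 127, 130, 131 and 133 with both terminators. The native share at position 106 was 39.0%, and position 133 held 40.7% with modNNN and 31.8% with modHTH. In tRPS3, on that assumption, only the most upstream of the main native sites kept its share. Native position 49 (12.9% of ends) corresponds to 76, which held 14.99% and 12.8% with modNNN and 32.7% and 31.7% with modHTH in the pRPS3 and pPGK1 contexts. Native positions 59 and 63, with 18.3% and 20.3%, correspond to 86 and 90. Position 86 held 1.21% and 0.822% with modNNN and 0.303% and 0.129% with modHTH, and position 90 held 1.03% and 0.726% with modNNN and 0.142% and 0.100% with modHTH. In the unmodified plasmids these sites were used much as in the native gene, with 24.0% of ends at position 63 in pRPS3-tRPS3. The places of the inserts within the terminators are not given in the sources used here, so ends could not be assigned to insert or native sequence.

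Some mCherry counts were not among the ends at the 200 positions, and their share went opposite ways in tRPS3 and tTSA1. This share rests on the gene count less the listed ends, so ends outside the window were not observed directly. It was 6.37%, 6.35%, 5.75% and 6.58% of mCherry counts with modNNN and 4.54% and 3.90% with modHTH in pRPS3-tRPS3, and 5.17% and 5.90% against 3.79% and 3.86% in pPGK1-tRPS3. In pTSA1-tTSA1 it was 7.38% and 7.57% with modNNN and 18.1% (95% exact binomial interval 16.7% to 19.5%, counting error only) and 18.6% (17.2% to 19.96%) with modHTH. The groups did not overlap in any context, a separation whose share among host genes is given above. The change was -1.88 percentage points over both tRPS3 contexts (exact permutation p = 0.0111, adjusted 0.0222) and 10.8 points in pTSA1-tTSA1. These lay 12.7 points apart, a description chosen after the values were seen. Where these counts lie is not given by the table of ends.

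Per 100 URA3 counts, the mCherry counts outside the 200 nt were 18.6 ± 1.18 with modNNN and 13.2 ± 1.05 with modHTH in pTSA1-tTSA1 (SD, n = 2 each). Those within 200 nt were 230 ± 19.1 and 59.2 ± 6.06. The higher share in modHTH was therefore a share of a smaller whole. Counts within 200 nt were at 0.257 of their modNNN level and those outside at 0.713. In pRPS3-tRPS3 both classes were lower, from 87.3 to 31.6 within and from 5.84 to 1.39 outside.

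The native genes and the marker were read in the same libraries as controls for 3′-end position. No position was called in PGK1 (0 of 18, none at an unadjusted p under 0.05, edgeR), in TSA1 (0 of 23, 1 unadjusted) or in the plasmid's URA3 (0 of 23, 2 unadjusted), each with 0% called. Only edgeR was run on positions. A single URA3 position was called without replicate 1 or 3 of pRPS3-tRPS3 modNNN, replicate 1 of any modHTH group or replicate 2 of pPGK1-tRPS3 modNNN, and a single TSA1 position without the last of these. In RPS3, 4 of 21 positions were called (19% called), all lower with modHTH and all far from the main sites: 187, 192, 190 and 169. The strongest, position 187, changed by -2.64 on the log2 scale (adjusted p = 7.48e-08).

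Those RPS3 ends stood out in the modNNN libraries with tRPS3. Position 187 held 1.56% to 4.63% of RPS3 ends (median 2.48%) in the 6 modNNN libraries with tRPS3 and 0.0644% to 0.424% in the 4 modHTH libraries with tRPS3. It held 0% to 2.10% (median 0.448%) in the 12 libraries with the other tRPS3 terminators. In the tTSA1 libraries it held 0.294% to 0.366% with modNNN and 0.364% to 0.393% with modHTH, and without a reporter 0.117% to 0.391%. By context, 5 of 21 positions were called in pRPS3-tRPS3, 4 in pPGK1-tRPS3 and 0 in pTSA1-tTSA1 (none unadjusted there). Reads from the plasmid and chromosomal copies of the RPS3 terminator cannot be told apart in this table. RPS3 as a whole changed by -0.21 on the log2 scale (adjusted p = 0.377) and TSA1 by 0.07. PGK1 is not interpretable here, since its count varied widely within groups (253 to 4163 CPM) and its direction changed with the settings.

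Few host genes were called for their mean change over the 3 contexts. The lower ones included 3 genes of zinc supply and the ribosome biogenesis factors RLP24 and BRX1, and the higher ones genes of lysine and branched-chain amino acid metabolism and a peptide transporter. Of 5142 host genes tested, 21 were called over the 3 contexts (0.408%), 12 higher (0.233%) and 9 lower (0.175%), at an adjusted p under 0.05 in edgeR, and 584 had an unadjusted p under 0.05. The mean does not show a common response: the direction was the same in all 3 contexts for 17 of the 21, and 4 were fully separated between modHTH and modNNN in every context. Over all genes tested such separation occurred in 0.467% upward and 0.35% downward.

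Among the higher genes, LYS1, which encodes saccharopine dehydrogenase of lysine synthesis, was separated in every context. It stood at 106, 108, 116 and 121 CPM with modNNN and 138 and 139 with modHTH in pRPS3-tRPS3. It stood at 74.6 and 51.5 against 131 and 160 in pPGK1-tRPS3, and at 39.6 and 38.6 against 51.7 and 53.2 in pTSA1-tTSA1. The change over the 3 contexts was 0.64 on the log2 scale (SE 0.11, adjusted p = 0.00435), and it was largest behind the PGK1 promoter (1.20). BAT2, the cytosolic branched-chain aminotransferase, was separated in the same way: 90.4, 87.7, 78.7 and 81.9 CPM against 127 and 125, then 110 and 109 against 162 and 136, and 95.3 and 78.1 against 106 and 100. It rose by 0.43 (SE 0.07, adjusted p = 0.00435).

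PTR2, a peptide transporter, rose by 0.71 (SE 0.12, adjusted p = 0.00435), from 29.4 to 46.2 CPM to 93.0 and 69.4 in pRPS3-tRPS3 and from 58.6 and 71.2 to 117 and 137 in pPGK1-tRPS3. In pTSA1-tTSA1 its values overlapped (47.7 and 40.7 against 47.0 and 50.6). Further amino acid genes were LYS2 (0.36), the α-aminoadipate reductase of lysine synthesis, and GCV2 (0.42), a subunit of glycine decarboxylase. CTP1, the mitochondrial citrate transporter, rose by 0.51, BDH1, butanediol dehydrogenase, by 0.38, and SPI1, a cell wall protein, by 0.57. IZH4 (0.63), a membrane protein of zinc homeostasis, BTN2 (0.42) and YMR196W (0.45) rose too. Adjusted p-values of these genes from LYS2 on ran from 0.0354 to 0.0468.

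Among the lower genes, the most changed were targets of zinc limitation. ZPS1, a cell-surface protein of the zinc regulon, held 528, 294, 547 and 345 CPM with modNNN and 15.7 and 21.3 with modHTH in pRPS3-tRPS3. It held 977 and 735 against 432 and 427 in pPGK1-tRPS3, and 1379 and 867 against 1056 and 1032 in pTSA1-tTSA1, where the groups overlapped. Over the 3 contexts it fell by 1.88 on the log2 scale (SE 0.25, adjusted p = 0.000333). ZRT1, the high-affinity zinc transporter, held 739 to 1231 CPM against 372 and 402 in the first context and 1197 and 1665 against 888 and 1007 in the next. In pTSA1-tTSA1 ZRT1 differed little, with 2104 and 2030 against 1991 and 1950. It fell by 0.68 (adjusted p = 0.0468) and ADH4, an alcohol dehydrogenase induced when zinc is scarce, by 0.86 (adjusted p = 0.0468).

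The other lower genes changed by less. OAZ1, the antizyme of ornithine decarboxylase, fell by 0.55 (adjusted p = 0.0357), LHP1, the yeast La protein that binds RNA polymerase III transcripts, by 0.35 (adjusted p = 0.0123), and the large-subunit biogenesis factors RLP24 and BRX1 by 0.39 and 0.38. STP4, a zinc-finger protein, fell by 0.34 and YLR297W, of unnamed function, by 0.41. The next lower gene by p, RPA12, a subunit of RNA polymerase I, was at -0.40 and did not pass (adjusted p = 0.057).

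These calls depended on single libraries and on the model. Leaving out 1 library at a time gave from 4 to 116 calls. The count was 4 without replicate 2 of pRPS3-tRPS3 modHTH, without replicate 1 of pPGK1-tRPS3 modHTH or without either replicate of pTSA1-tTSA1 modHTH, and 5 without replicate 1 of pRPS3-tRPS3 modHTH or replicate 2 of pPGK1-tRPS3 modNNN. It was 6 and 11 without replicates 1 and 3 of pRPS3-tRPS3 modNNN, 7 without replicate 2 of pPGK1-tRPS3 modHTH, 7 and 10 without replicates 1 and 2 of pTSA1-tTSA1 modNNN, 45 without replicate 4 of pRPS3-tRPS3 modNNN and 116 without replicate 1 of pPGK1-tRPS3 modNNN. No sign changed among the 21 in any of these fits. They were selected in these same libraries, so agreement in sign, here or in the next model, is no separate support. A model with context as a block and a single terminator term over the 14 libraries called 0 of 5082 genes in edgeR (533 unadjusted, smallest adjusted p = 0.0829), with all 21 in the same direction, while DESeq2 called 47 by the contrast used here, 19 of them shared.

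**Figure D3:**
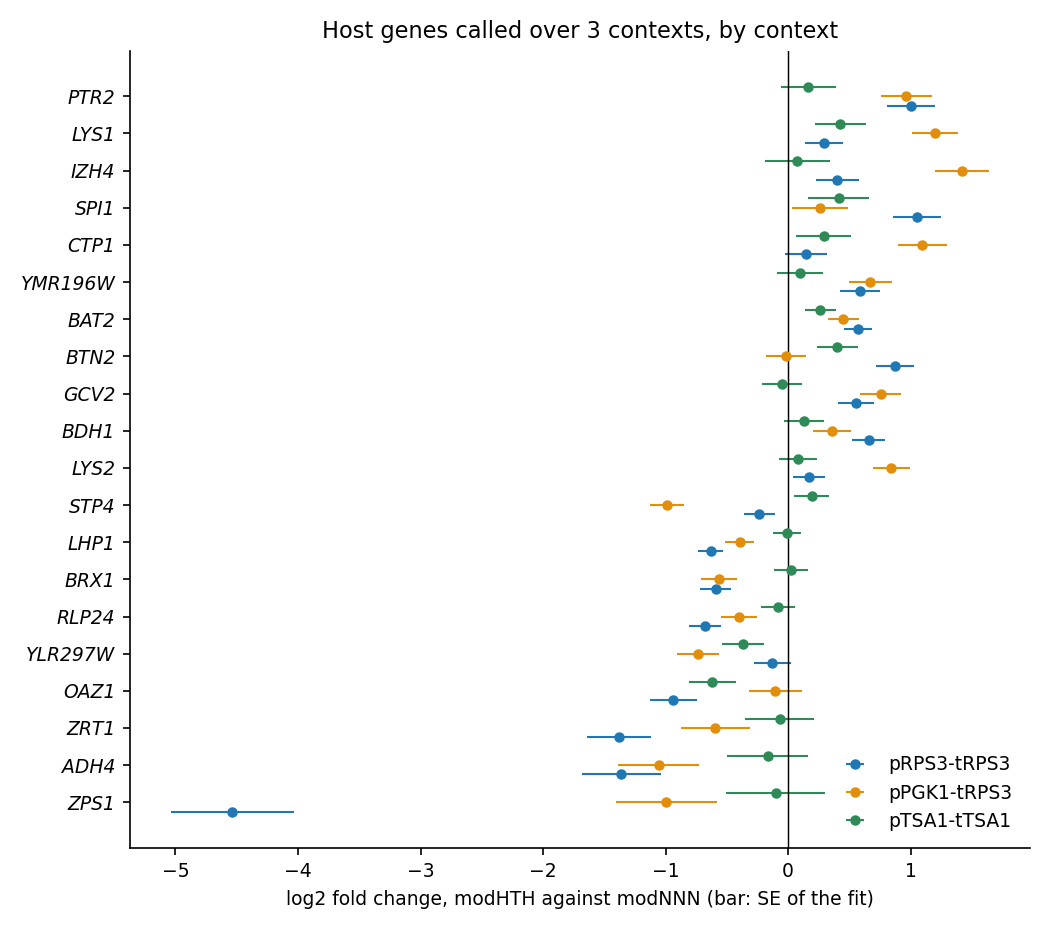
Log2 fold change, modHTH against modNNN, with its standard error (bars) for host genes called over the 3 contexts, drawn separately for each context. ZPS1 stands at -4.54 in pRPS3-tRPS3, and LYS1 is above 0 in every context.

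Within pRPS3-tRPS3, 8 of 20 stress response genes rose and 6 of 17 phosphate and zinc genes fell. In total 159 host genes were called (3.09%; 74 higher, 1.44%, and 85 lower, 1.65%; 811 unadjusted). The split depends on scaling, with 46.5% of calls higher with TMM and 74.5% with library totals, where the median of all genes moved by 0.09. The count rests on few libraries: it was 4 without modHTH replicate 1 and 1 without modHTH replicate 2, and 65 and 66 without modNNN replicates 1 and 3.

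The higher genes were led by HXK1, a hexokinase, at 17.4, 19.2, 22.0 and 15.4 CPM with modNNN and 56.01 and 54.6 with modHTH (log2 1.60, SE 0.33, adjusted p = 0.00858). RGI1, a protein of respiratory growth, stood at 260, 379, 271 and 352 CPM against 753 and 637 (log2 1.14). GPH1, glycogen phosphorylase, rose by 1.12, GAD1, glutamate decarboxylase, by 1.08 and TSA2, a peroxiredoxin, by 1.07. TMA10 (1.13), EGO4 (1.15) and YFR052C-A (1.19) rose likewise. Of 20 genes in a stress response list, 8 rose, none fell and 12 did not pass, with a median of 0.77 against 0.00 over all genes tested. Besides GPH1 these were the chaperone genes HSP42 (0.56), HSP82 (0.59), SSA4 (0.85) and HSP12 (0.93), the trehalose synthase subunit TPS1 (0.71), the glycogen synthase GSY2 (0.82) and the phosphoglucomutase PGM2 (0.92). Of 20 glycolytic genes HXK1, TDH1 (0.89) and ENO1 (0.54) rose, and of 16 peroxiredoxin and thioredoxin genes TSA2 and HYR1 (0.45).

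Of 17 phosphate and zinc genes, 6 fell, none rose and 11 did not pass (median -0.57). ZPS1 fell by 4.54 (SE 0.50, adjusted p = 7.41e-06), and ZRT1 and ADH4 fell by 1.38 and 1.36. SPL2, which is induced by phosphate starvation, fell by 1.44, the acid phosphatase gene PHO12 by 1.28 and VTC1, of the vacuolar polyphosphate polymerase complex, by 0.47. PHO12 is nearly identical to PHO11, so its reads may belong to either. Outside that list FRE1, a ferric and cupric reductase, fell by 1.17, NVJ3 by 1.28 and ECM1, of pre-60S ribosome export, by 0.94.

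Most genes of the ribosome biogenesis and small-subunit ribosomal protein lists had lower estimates with modHTH in this context, though a minority was called. Of 52 ribosome biogenesis genes 10 were called lower, none higher and 42 did not pass (median -0.37), with 49 estimates negative. Of 56 small-subunit ribosomal protein genes 6 were called lower, none higher and 50 did not pass (median -0.33), with 52 estimates negative. Over all genes tested 1.65% were called lower, with a median of 0.00. Of 72 mitochondrial ribosomal protein genes none was called (median -0.01). In the pyrimidine list URA1, dihydroorotate dehydrogenase, fell by 0.65 and FUR1, uracil phosphoribosyltransferase, by 0.57, among 13.

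Within pPGK1-tRPS3, the higher genes included 3 of lysine synthesis, 2 of arginine synthesis and 3 of sulfur amino acid metabolism. In total 27 genes were called (0.525%; 23 higher, 0.447%, and 4 lower, 0.0778%; 340 unadjusted). Only PTR2 and GCV2 were also called in pRPS3-tRPS3, which is 1.26% of the calls there and 7.41% here. The count was 4 without modNNN replicate 2, 9 without modHTH replicate 1 and 1 without modHTH replicate 2.

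The lysine genes included LYS20, a homocitrate synthase, at 252 and 147 CPM with modNNN and 419 and 461 with modHTH (log2 1.14, SE 0.20, adjusted p = 0.00467). LYS1 rose by 1.20 (adjusted p = 0.00182) and LYS2 by 0.84. Of 11 lysine genes these 3 rose, none fell and 8 did not pass, with a median of 0.40 against -0.01 over all genes. Of 8 arginine genes 2 rose, none fell and 6 did not pass (median 0.49). The risen genes were ARG1, argininosuccinate synthetase, from 504 and 224 to 762 and 882 CPM (log2 1.18, adjusted p = 0.0374), and ARG3, ornithine carbamoyltransferase, from 22.2 and 17.4 to 46.7 and 58.8 (log2 1.40). Of 19 sulfur amino acid genes 3 rose (median 0.51), the methionine permease MUP1 (1.07), MET1 of sulfite reduction (1.08) and the S-methylmethionine permease MMP1 (1.30). These 3 lists were drawn up after the values were seen, so their counts are descriptions. In pRPS3-tRPS3, none of the lysine or arginine genes was called, while of the sulfur genes MET3 (0.83) and STR3 (1.04) rose and SAM3 fell by 0.46.

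Other genes called in this context lay outside the lysine, arginine and sulfur lists. YOX1, a homeobox repressor of the cell cycle, stood at 11.4 and 6.94 CPM with modNNN and 22.0 and 35.8 with modHTH (log2 1.62, adjusted p = 0.0125). IZH4 rose by 1.416 and MHT1 by 1.32. MHT1, a homocysteine methyltransferase, is also a gene of sulfur amino acid metabolism, though the list did not hold it. Lower were VEL1 (-2.15), which is induced when zinc is scarce, STP4 (-0.99), YLR297W (-0.74) and HXT1, a low-affinity hexose transporter (-0.89). STP4 held 222 and 233 CPM with modNNN and 122 and 106 with modHTH. No member of the stress, phosphate and zinc, ribosome biogenesis or small-subunit ribosomal protein lists was called, with medians of -0.06, 0.06, -0.20 and -0.00.

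Within pTSA1-tTSA1 no host gene was called. The reporter ratio there was 0.291 of its modNNN level. Called host genes were 0 of 5142 in edgeR (0%; 166 unadjusted) and 0 in DESeq2 (69 unadjusted). No list had a called member.

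**Figure D4:**
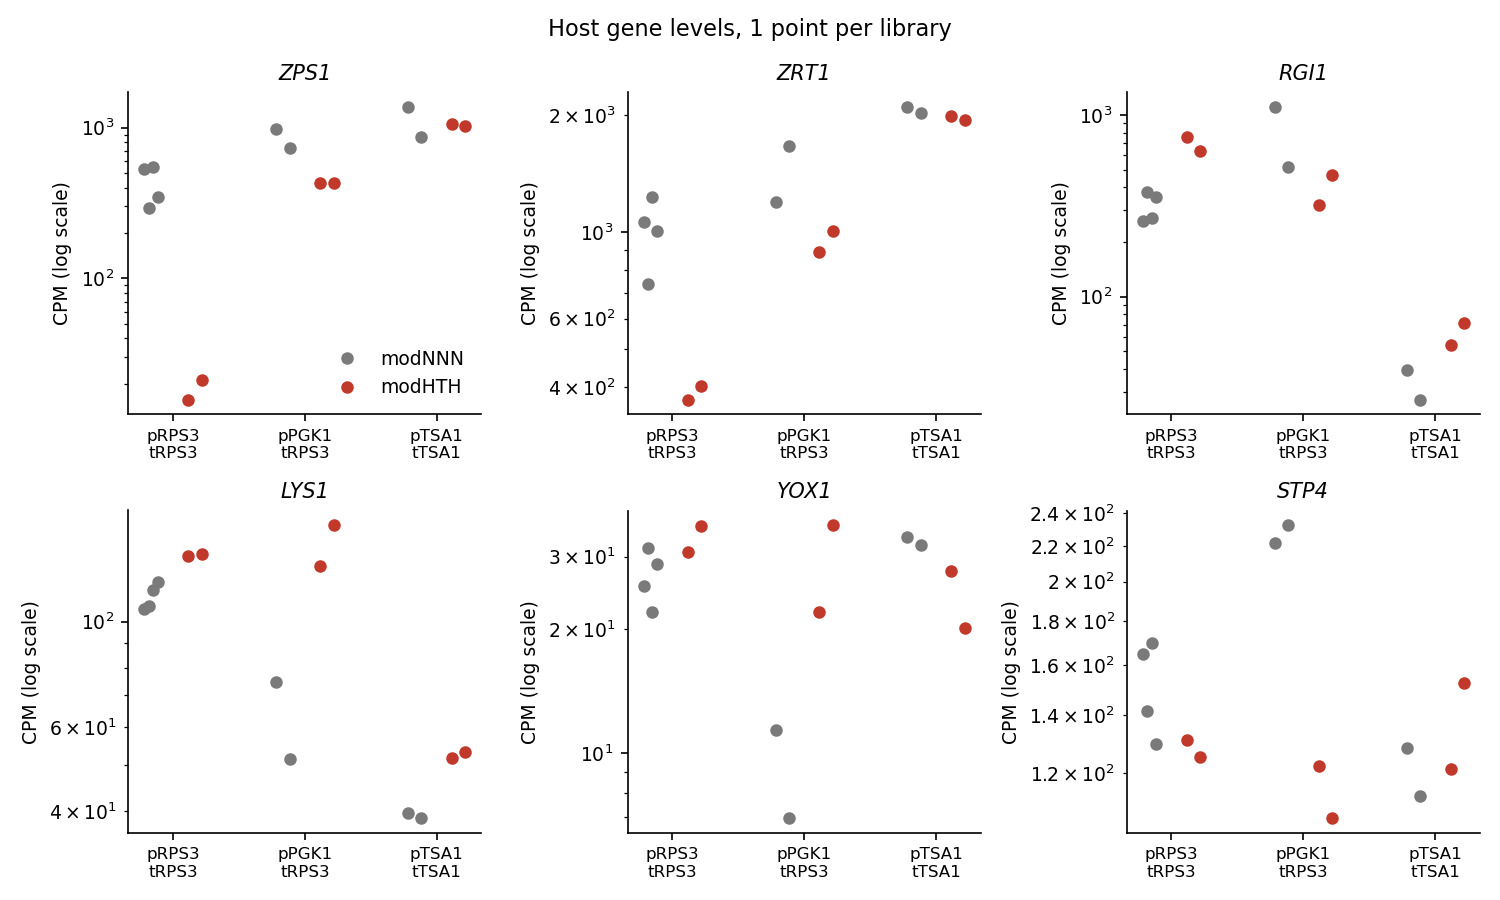
CPM per library (log axis) for ZPS1, ZRT1, RGI1, LYS1, YOX1 and STP4 by context for modNNN and modHTH. ZPS1 is at 15.7 and 21.3 CPM in pRPS3-tRPS3 modHTH and overlaps between terminators in pTSA1-tTSA1, while LYS1 is higher with modHTH in every context.

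The terminator's effect on host genes was compared between contexts by the difference of log2 fold changes. Between pPGK1-tRPS3 and pRPS3-tRPS3, 8 genes differed (0.156%; 5 higher, 0.0972%, and 3 lower, 0.0583%). RGI1 differed by -2.20 (SE 0.35, adjusted p = 0.00661): its values in pPGK1-tRPS3 were 1111 and 520 CPM with modNNN and 319 and 465 with modHTH, the reverse of pRPS3-tRPS3. In pRPS3-tRPS3 ZPS1 and PHO12 were called at -4.54 and -1.28, while in pPGK1-tRPS3 they stood at -0.99 and 0.68 without passing, a difference of 3.54 and 1.96. The purine-cytosine permease FCY2 (1.09) and the biotin transporter VHT1 (1.32) differed upward. Between pTSA1-tTSA1 and pRPS3-tRPS3, ZPS1 (4.43, adjusted p = 0.000991) and PHO12 (1.78) differed (0.0389%). Between pTSA1-tTSA1 and pPGK1-tRPS3, 4 genes differed (0.0778%; 3 higher, 0.0583%, and 1 lower, 0.0194%), with YOX1 at -2.07 and STP4 at 1.18 (adjusted p = 0.0410 and 0.0156).

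These small counts rested on nearly every library. The 8 became 36 without replicate 2 of pPGK1-tRPS3 modNNN, 1 without replicate 2 of pRPS3-tRPS3 modHTH or of pPGK1-tRPS3 modHTH, and 3 without replicate 1 of pPGK1-tRPS3 modHTH. They became 4 without replicate 1 of pRPS3-tRPS3 modNNN, replicate 1 of pRPS3-tRPS3 modHTH or either replicate of pTSA1-tTSA1 modHTH, and 5 without replicate 3 of pRPS3-tRPS3 modNNN. The 2 became 0 without replicate 1 of pRPS3-tRPS3 modHTH and 1 without its replicate 2, either replicate of pTSA1-tTSA1 modNNN or replicate 1 of pTSA1-tTSA1 modHTH. The 4 became 0 to 2 in these fits: without replicate 2, 3 or 4 of pRPS3-tRPS3 modNNN, either replicate of pRPS3-tRPS3 modHTH, replicate 2 of pPGK1-tRPS3 modHTH, or any of the pTSA1-tTSA1 libraries.

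Host genes that carry the inserted motifs themselves were then examined. In the 200 bases after the stop codon of 5549 RefSeq genes, TGTACAATA occurred on the coding strand in 27 (0.487%) and TTTCATTTC in 44 (0.793%), and no gene held both. A match describes the letters and is not evidence of binding. The sites below belong to the genes with the smallest p of each kind over the 3 contexts, with the motif in capitals and 8 bases on either side. PDP3 holds 3 overlapping copies, of which the most upstream is shown. They lie at II:783644-783668 (- strand), II:469704-469728 (- strand), XIV:378533-378557 (+ strand), XV:628287-628311 (- strand), II:679358-679382 (- strand) and XII:1054590-1054614 (+ strand), in R64 and in the order printed.
CTP1: tattattgTGTACAATAtatcatct
LYS2: tatgtccaTGTACAATAattaaata
KRE33: acttaattTGTACAATAatatagaa
NFI1: ttctattgTTTCATTTCgctcttaa
OM14: cattctttTTTCATTTCaagtaccc
PDP3: caatattgTTTCATTTCatttcatt

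Of 25 tested genes with motif T, CTP1 and LYS2 rose over the 3 contexts, none fell and 23 did not pass. Their motif starts at position 13 in CTP1 and 28 in LYS2. CTP1 stood at 88.2 and 75.2 CPM with modNNN and 190 and 159 with modHTH in pPGK1-tRPS3 (log2 1.09). In pRPS3-tRPS3 it stood at 75.5 to 150 against 123 and 128, where the groups overlapped. The 25 had a median of -0.10 against -0.01 over all genes tested, of which 0.233% were called higher over the 3 contexts. Within pRPS3-tRPS3, 2 of the 25 were called lower and none higher, where 1.65% of all genes were called lower and 1.44% higher. Within pPGK1-tRPS3, 2 were called higher and none lower (0.447% of all genes higher). Of 41 tested genes with motif H, none was called over the 3 contexts (edgeR), and their median was -0.02. In pRPS3-tRPS3, OM14, an outer mitochondrial membrane protein, rose from 46.2, 56.2, 52.5 and 54.6 to 81.6 and 75.4 CPM. KRE33, a ribosomal RNA acetyltransferase, NFI1, a SUMO ligase, and PDP3 were not called over the 3 contexts.

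The genes whose products act on such motifs or on 3′ ends were mostly not called. Of 8 genes of the Puf family and Ssd1, an RNA-binding protein, none was called over the 3 contexts, and in pRPS3-tRPS3 PUF6, a ribosome biogenesis factor of the family, fell by 0.58 (adjusted p = 0.0453). PUF3 was at 0.62 there without passing (adjusted p = 0.317). Of 31 deadenylation and decapping genes LSM2 alone was called, at -0.45 in pRPS3-tRPS3. Of 25 cleavage and polyadenylation genes none was called in any context, with a median of -0.06 over the 3 contexts.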

How the data were processed

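The authors deposited raw counts: a table of counts per transcript feature (5698 features) and tables of 3′-end counts along the 200 bases that follow the stop codon, for the reporter and for PGK1, RPS3, TSA1 and URA3. The submitters' processing notes name FastQC, cutadapt, HISAT2, featureCounts, bedtools, MultiQC and SAMtools, and the builds sacCer3 and R64. Versions, the strand setting and the treatment of multi-mapped reads are not given in the sources used here. Reads carry no molecular identifiers, so intervals cover counting error only.

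Samples were grouped by the plasmid named in their labels, which give no batch or date. Counts were fitted with edgeR 4.0.16 (R 4.3.3) by quasi-likelihood over all 34 libraries in 16 groups (18 residual degrees of freedom), with TMM scaling and filterByExpr. The 2 plasmid rows and the URA3 locus row (YEL021W) stayed out of the host fit, which left 5142 genes. mCherry was tested in a fit over the 32 libraries that carry it. The value over the 3 contexts is the mean of the differences within contexts. Benjamini-Hochberg adjustment ran over all features, and a call is an adjusted p under 0.05. Positions were fitted with the ends within 200 nt as library size. Single reporter values were compared by 2-sided exact permutation within contexts. Sequences come from RefSeq R64. All 4672 of the 4818 transcripts in the deposited annotation that matched a RefSeq gene contain its R64 reading frame.

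Named over the 3 contexts were up to 15 called genes in each direction by p, filled to 10 as values, in or between contexts up to 8 in each direction by size, of each list the 3 with the smallest p, and all called positions with at least 5% of ends. Genes named beyond this rule, among them list members that were called and further Puf genes, were chosen after their values were seen, and 1 called gene is not reported here by name or in a list. The comparison, members and lists were chosen with earlier results of these data known.

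Libraries with the same replicate number were checked for pairing by the correlation of their deviations from group means, which ran from 0.0268 to 0.178. The code was tested on simulated data. Alternatives were DESeq2 1.42.0, library totals, other filters, only the 14 libraries, a replicate block, a context block, the first residual component as a covariate, URA3 as size factor, replicates 1 and 2 alone of the group of 4, other position settings and each library left out.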

Additional observations from a re-analysis of the deposited data

Results flagged for a closer look

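SPI1, a cell wall protein gene, held 185, 215, 186 and 369 CPM in the 4 pRPS3-tRPS3 modNNN libraries. The gap of replicate 4 to the nearest library was 0.834 of the range, above Dixon's 95% critical value for 4 samples. It was the only such case among 62 sets of 4 values tested in that group, of genes, reporter values and 3′-end positions. Chance flags about 1 in 20 such sets.

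Differences of the modHTH effect between contexts that passed edgeR's test, adjusted over all genes, were as follows. For pPGK1-tRPS3 minus pRPS3-tRPS3 they were -1.67 for COX26, a cytochrome oxidase subunit (adjusted p = 0.0492), 1.09 for FCY2 (0.00968), -1.32 for GSY1, a glycogen synthase (0.0492), 1.96 for PHO12 (0.00968), -2.20 for RGI1 (0.00661), 0.92 for SAM3, the S-adenosylmethionine permease (0.0455), 1.32 for VHT1 (0.0436) and 3.54 for ZPS1 (0.00968). For pTSA1-tTSA1 minus pRPS3-tRPS3 they were 1.78 for PHO12 (0.0107) and 4.43 for ZPS1 (0.000991). For pTSA1-tTSA1 minus pPGK1-tRPS3 they were 1.76 for GSY1 (0.0410), 1.18 for STP4 (0.0156), 1.15 for TPO4, a polyamine exporter (0.0391), and -2.07 for YOX1 (0.0410).

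Reporter changes differed in sign between contexts, though the change of the log2 ratio in pPGK1-tRPS3 was small (0.17, SE 0.11). The modHTH and modNNN libraries did not overlap in any context. In pPGK1-tRPS3 that also held for the CPM of 16.6% of host genes upward and 16.7% downward. The differences between contexts were picked after the values were seen. Exact permutation tests of them (p = 0.00185 each, adjusted 0.0037 over 6 such tests) are therefore no support. The other differences of this kind did not pass. The log2 ratio of mCherry to URA3 changed by 1.81 more in pPGK1-tRPS3 than in the other contexts. In pTSA1-tTSA1 the mean position of ends within 200 nt changed by -8.78 nt and the share outside 200 nt by 12.7 percentage points relative to both tRPS3 contexts.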

How the results depend on the processing

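The counts of host genes over 3 contexts, in pRPS3-tRPS3, in pPGK1-tRPS3 and for the differences pPGK1-tRPS3 minus pRPS3-tRPS3, pTSA1-tTSA1 minus pRPS3-tRPS3 and pTSA1-tTSA1 minus pPGK1-tRPS3 were 21, 159, 27, 8, 2 and 4. With only the 14 libraries in the fit they were 8, 64, 17, 1, 1 and 2. Leaving out each library gave 4 to 116, 1 to 208, 1 to 39, 1 to 36, 0 to 3 and 0 to 4. Library totals without TMM gave 12 over 3 contexts, 16 in pPGK1-tRPS3, and 1 and 0 for the last differences, and moved the median of all genes for the first difference by -0.13, with 20% of its calls higher against 62.5% with TMM. DESeq2 gave 47 over 3 contexts and 5 for pTSA1-tTSA1 minus pRPS3-tRPS3. Replicates 1 and 2 alone of pRPS3-tRPS3 modNNN gave 74 in that context and 5, 1 and 1 for the differences. The context block gave 0, and the first residual component (25.9% of the variance within groups) as a covariate gave 125 over 3 contexts. The causes were not tested.

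The correlations by replicate number were 0.178, 0.0268, 0.105, 0.105, 0.107 and 0.107, all positive but not all over 0.1, so the main fit was unpaired. Scores on the first residual component were lower for replicate 1 than for replicate 2 in every modHTH and modNNN group. They ran from -0.13 and 0.13 in pTSA1-tTSA1 modHTH to -1.81 and 1.81 in pTSA1-tTSA1 modNNN. Whether libraries of the same number share a source was not tested. The replicate block gave 18 calls over 3 contexts (15 shared), 76 in pRPS3-tRPS3, 30 in pPGK1-tRPS3, and 1 and 1 for the differences with pTSA1-tTSA1. Several correlations only just exceed 0.1, and with 2 numbers a context they are not independent.

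For mCherry, the value over 3 contexts was -0.93 with the context block, no longer called (adjusted p = 0.211), and -0.95 to -0.80 with a library left out. In pRPS3-tRPS3 it was -1.50 with URA3 as size factor, not called (adjusted p = 0.168), and -1.45 to -1.20 with a library left out. In pTSA1-tTSA1 it was called at -1.56 with only the 14 libraries and at -1.57 by DESeq2. Of the differences, pTSA1-tTSA1 minus pPGK1-tRPS3 was called at -1.83 and -1.85 there, and pPGK1-tRPS3 minus pRPS3-tRPS3 at 1.62 by DESeq2.

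The change in mean position of ends within 200 nt was 1.80 nt over 3 contexts (exact permutation p = 0.257). It was 3.16 in pRPS3-tRPS3, 6.29 in pPGK1-tRPS3 and -4.05 in pTSA1-tTSA1. With the median position it was, in the same order, 8.42 (exact permutation p = 0.0148, now past the threshold), 10.3, 17 and -2. Windows of 5 positions gave 13, 13 and 13 called for both tRPS3 contexts and each alone, and positions with at least 5% of ends gave 9, 9, 8 and, in tTSA1, 3, where 20 were called. Both settings tested fewer items than the fit of single positions, so their counts cannot be set directly beside its counts. Without 1 library the called positions ran from 10 to 23 in tTSA1, and from 0 to 1 in TSA1 and in URA3. PGK1 reversed from -0.18 to 0.20 with the replicate block, 0.18 with the residual component, 0.070 with replicates 1 and 2 alone, and 0.093, 0.033, 0.20 and 0.56 in 4 of the fits without a library, which ran from -0.57 to 0.56. No other result changed direction. Reporter shares rest on 2350 to 21543 ends per library.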
